A study of Brachypodium distachyon with 7 samples.

Results

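The CBF genes considered here are 6 loci of chromosome 4 of the grass Brachypodium distachyon, numbered in a run from Bradi4g35580 to Bradi4g35650. They were listed as a published gene family and not by a cut on a measured value, but the list was chosen with earlier results of these data known. Every listed locus was kept wherever a deposited table held it. Of the 6 listed loci, 5 were among the 11752 genes of the H3K4me3 tables, 4 were among the 6554 genes of the H3K27me3 tables and 3 were in both. Bradi4g35610 and Bradi4g35650 had H3K4me3 values only, and Bradi4g35640 had H3K27me3 values only. The tables give locus identifiers without names, so the assignment to the CBF family comes from outside them, and no listed locus could be matched to the reference gene table or to a sequence.

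CBF proteins are transcription factors with an AP2 DNA-binding domain. They bind a short promoter element of cold-responsive genes and switch on proteins that protect cells from freezing and drying, and in Arabidopsis the CBF genes themselves are turned on soon after the temperature drops. In temperate cereals, tandem arrays of CBF genes lie at a locus that contributes to frost tolerance. H3K4me3 usually marks the 5′ part of genes that are transcribed. H3K27me3 is laid down by Polycomb proteins at genes that are kept silent in part of the plant or for part of its life.

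Both marks were mapped by chromatin immunoprecipitation and sequencing in pooled aerial parts of ABR1 seedlings, a diploid line grown at 24 °C in 16 h light and 8 h dark. V0 seedlings were 17 days old and had no cold. V30 seedlings were taken at the end of 30 days at 4 °C, which began when they were 14 days old. For V30N the same length of cold began after only 7 days of growth, and harvest came 7 days after the return to warmth. H3K4me3 was profiled in 2 V0 libraries and in 1 library each of V30 and V30N, and H3K27me3 in 1 library of each condition. The series' design text calls the second V0 library a biological replicate, but no label says what separated the pair. The p-values rest only on the spread between those libraries, which the main fit takes over genes of similar level and not gene by gene. Age and growth before cold differ between the conditions, and their effects and those of cold or rewarming cannot be told apart. All plants of a condition were pooled, so a change in some cells and a smaller change in every cell cannot be told apart either. No marker gene could be named in the tables, so the labelled tissue was not checked.

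The values are the authors' signal per gene, on a scale the headers do not define. Whether it is divided by gene length is unknown, so levels were compared within a gene and not between genes, and with no read depth no counting interval was computed. In each H3K4me3 library many genes hold 1 identical number, called a fill value here. It is 22.3 at 1139 genes of V0 library 1, 23.2 at 74 genes of V0 library 2, 22.9 at 1012 genes of V30 and 25.4 at 208 genes of V30N. Of the 5 CBF genes with H3K4me3 values, 4 were free of it in every library, and Bradi4g35590 held it in V30N. Low values were also spaced differently between libraries. Those of V0 library 1 and V30 lay on a grid with 34 fine steps in each coarse one (mean cosine of the position within a fine step of 0.866 and 0.861, where 1 is a perfect grid), and those of V0 library 2 and V30N on none that was found (at most 0.101). In H3K27me3, V30 had 34 fine steps per coarse step, and V0 and V30N had 48. The comparisons within 1 kind of spacing are therefore V30 with V0 library 1 for H3K4me3 and V30N with V0 for H3K27me3. For V30N of H3K4me3 no shared spacing with either V0 library was found. Across the 9323 genes free of a fill value, V0 library 2 correlated more closely with V30N (Pearson r = 0.960) than with V0 library 1 (0.902). V0 library 1 correlated at 0.910 with V30 and with V30N, and V30 at 0.880 with V0 library 2 and 0.884 with V30N. The cause was not tested.

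H3K27me3 was lower at the end of cold than without cold at 4 of the 4 CBF genes measured, where 51.8% of all genes were lower, and by a similar proportion at the 3 that begin the run. At Bradi4g35580 the V0 library had a signal of 135, the V30 library 83.6 and the V30N library 140. Bradi4g35590 had 268, 152 and 314 in the same order, and Bradi4g35600 had 94.6, 52.9 and 103. In each of these genes V30 was the low library, and V0 and V30N lay close together. The V30 signal was 0.620, 0.566 and 0.559 of the V0 signal at Bradi4g35580, Bradi4g35590 and Bradi4g35600. Bradi4g35640 followed the same order, with 28.0, 23.5 and 34.8. The lowest values of any gene in those tables were 27.3, 23.3 and 27.9, so Bradi4g35640, with a V30 signal 0.840 of that in V0, sat almost at the bottom of both tables, where 22 and 3 of the 6554 genes had lower values.

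**Figure D1:**
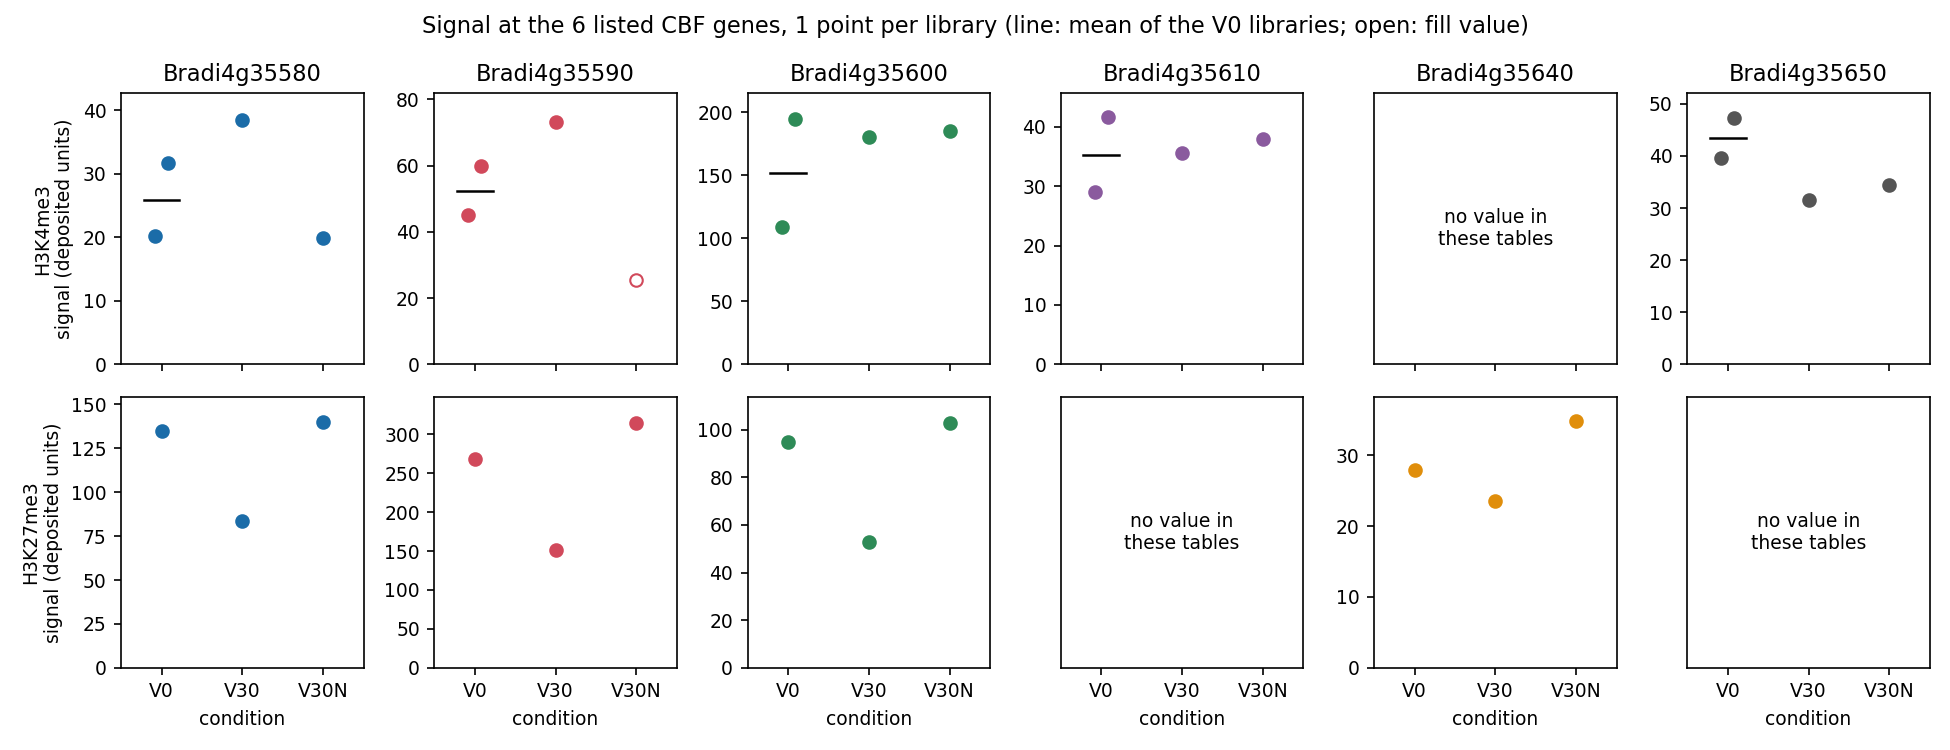
Signal of H3K4me3 (top row) and H3K27me3 (bottom row) in deposited units at the 6 listed CBF genes, with 1 point per library by condition, a line at the mean of the V0 libraries of H3K4me3, an open point for a fill value and each panel on its own scale from 0. V30 is the lowest H3K27me3 library in all 4 genes measured, whereas for H3K4me3 the V30 point lies above both V0 points at Bradi4g35580 and Bradi4g35590, between them at Bradi4g35600 and Bradi4g35610 and below them at Bradi4g35650.

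Differences were computed as log2(signal + pseudocount), with a pseudocount of 27.3 for H3K27me3 and 9.41 for H3K4me3, which understates changes at low signal. On this scale V30 minus V0 of H3K27me3 was -0.72 at Bradi4g35590, -0.61 at Bradi4g35600, -0.55 at Bradi4g35580 and -0.12 at Bradi4g35640. These ranked 60, 107, 147 and 2063 from the lowest of 6554 genes. Past a 1.5-fold difference there were 2 of the 4 CBF genes, against 1.83% of all genes. Among the 1872 genes that carry both marks the share was higher, at 3.42%, and 2 of the 3 CBF genes with both marks were past it. The median of the 4 was -0.58, and that of all genes was -0.0099. With the trend of the difference with signal level removed, the values were -0.76, -0.54, -0.51 and -0.01 in the order given above. Of the 4, 1 remained past 1.5-fold, against 92 of all 6554 genes. Without a pseudocount, 3 of 4 passed it, against 390 of all 6554 genes. With 1 library per condition there was no test, and since V30 also has the other spacing of values, cold and that technical difference cannot be told apart.

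After rewarming, H3K27me3 at the CBF genes was at or slightly above its level without cold. V30N minus V0 was 0.21 at Bradi4g35590, 0.17 at Bradi4g35640, 0.09 at Bradi4g35600 and 0.05 at Bradi4g35580. All 4 values were positive, as were 48.5% of all genes' values, and 0 of 4 passed 1.5-fold, against 0.107% of all genes higher by that much. Bradi4g35590 had the widest gap in ratio of signal among the 3 genes above the bottom of the tables, at 1.17 times V0, and it ranked 667 from the highest of 6554 genes. V0 and V30N share a kind of spacing, so of the H3K27me3 comparisons this one is free of that difference.

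From V30 to V30N the signal was higher at all 4, as it was at 49.8% of all genes. It was 2.07 times the V30 signal at Bradi4g35590, 1.94 times at Bradi4g35600, 1.68 times at Bradi4g35580 and 1.48 times at Bradi4g35640. The log2 differences were 0.93, 0.70, 0.59 and 0.29, at ranks 12, 37, 67 and 709 from the highest. Past 1.5-fold there were 3 of 4, against 1.16% of all genes, and, of genes with both marks, 3 of 3 against 2.3%. This comparison uses the same V30 library as the one with V0, so the pair of them is not 2 separate observations of a low V30 value.

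**Figure D2:**
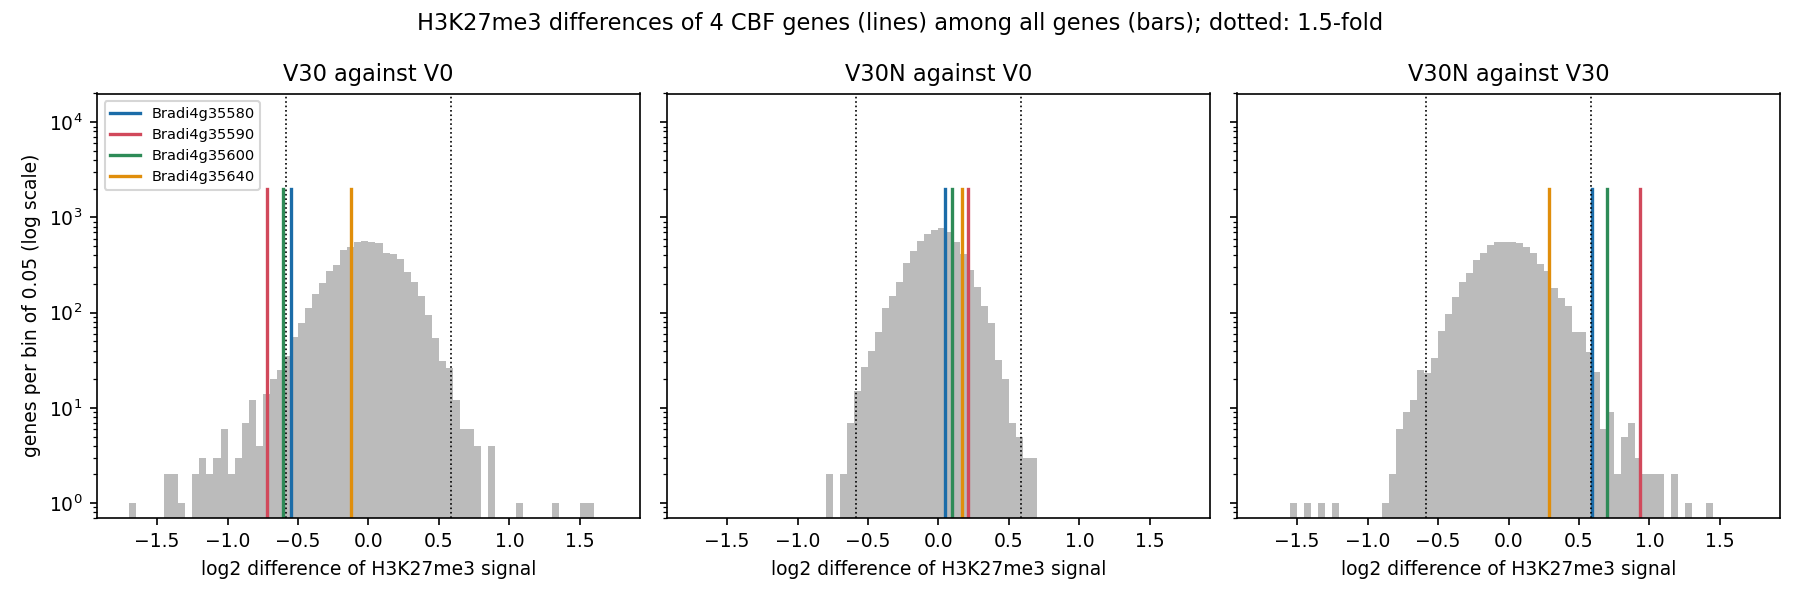
Number of genes per bin of log2 difference in H3K27me3 signal (log scale, grey bars, all 6554 genes) for the 3 comparisons, with a coloured line for each CBF gene and dotted lines at 1.5-fold. Bradi4g35580, Bradi4g35590 and Bradi4g35600 lie in the lower tail for V30 against V0 and the upper tail for V30N against V30, and the 4 values run from 0.05 to 0.21 for V30N against V0.

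Along the chromosome, H3K27me3 in V30 was set against that of the measured neighbours by locus number. Within 300 locus numbers of the run, 11 other loci had H3K27me3 values, 8 before it and 3 after it, and no unlisted locus inside the run was in the tables of either mark. Their V30 minus V0 differences ran from -0.27 to 0.59 with a median of -0.08. None was lower by 1.5-fold and 1 was higher, Bradi4g35294, named after its values were seen, with 145 in V0 and 232 in V30. Bradi4g35580, Bradi4g35590 and Bradi4g35600 lay below all 11, whereas Bradi4g35640 lay within their range. The nearest measured locus before the run, Bradi4g35510, had 75.5 in V0, 102 in V30 and 109 in V30N, so that V30 was above V0 there. The nearest after it, Bradi4g35660, had 30.9, 27.8 and 51.6, an order like that of its neighbour Bradi4g35640, and both were near the bottom of the V0 and V30 tables. From V30 to V30N the flanking loci ran from -0.49 to 0.66 and overlapped the CBF genes. Locus numbers give order only, and distances in bases were not available.

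**Figure D3:**
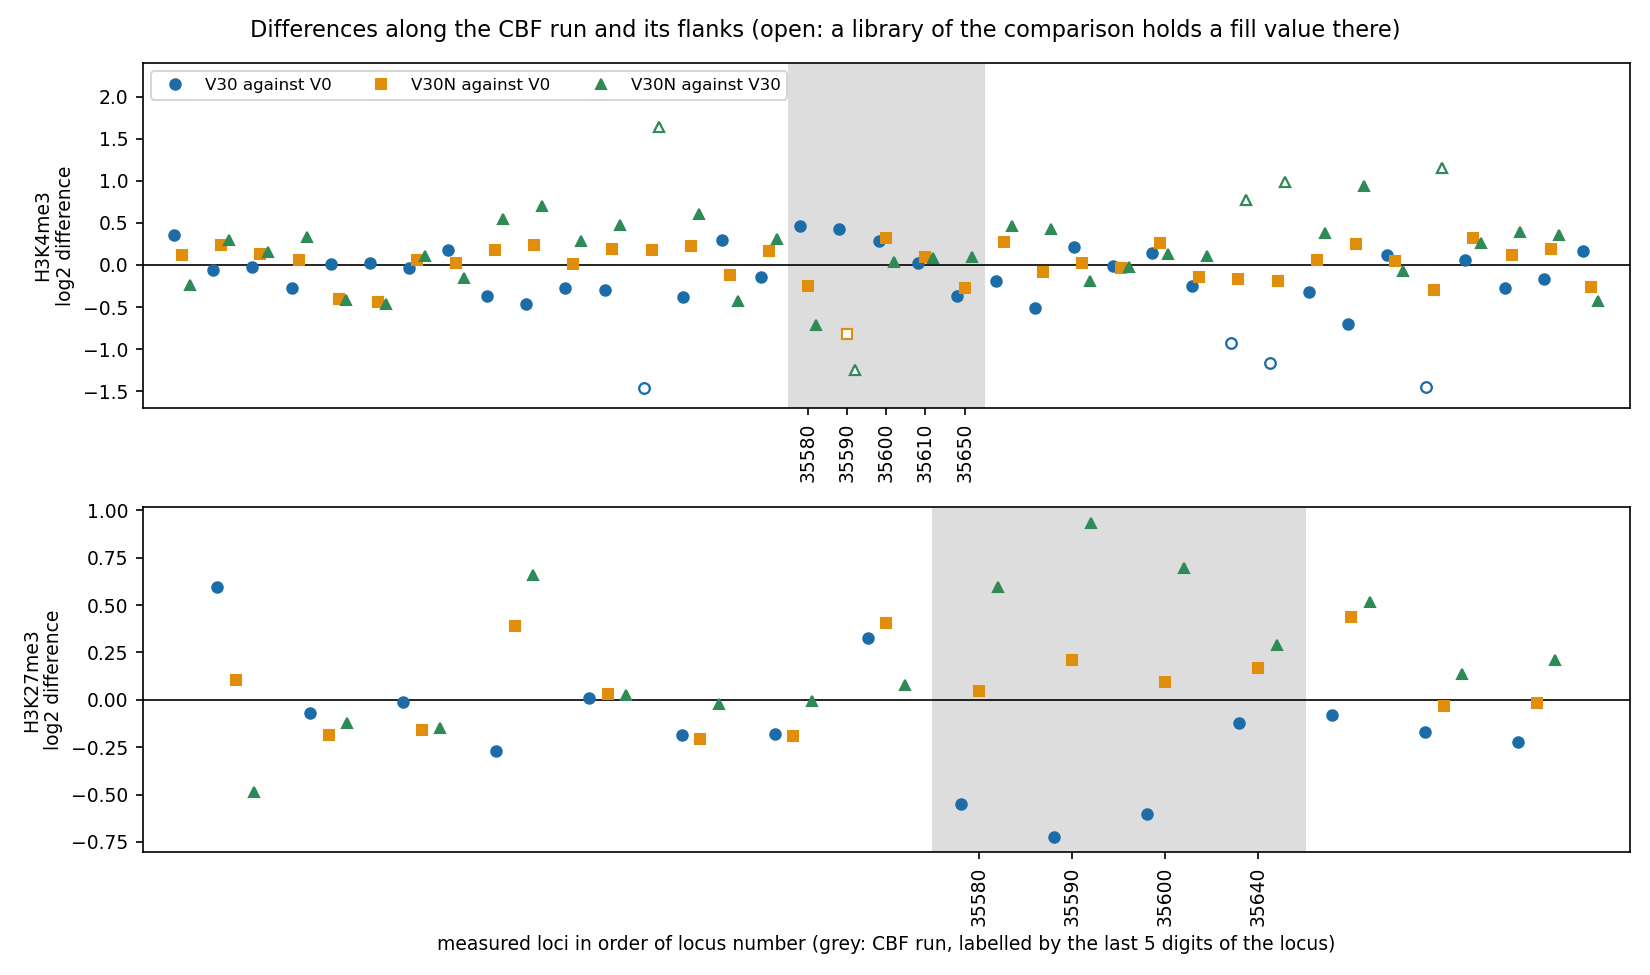
Log2 difference in H3K4me3 (top) and H3K27me3 (bottom) for the 3 comparisons at each measured locus within 300 locus numbers, in order along the chromosome, with the CBF run in grey and open symbols where a library of the comparison holds a fill value. In H3K27me3 the first 3 CBF genes have V30 minus V0 values below all 11 flanking loci, and in H3K4me3 the 4 open circles on the flanks are the lowest V30 minus V0 values there.

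H3K4me3 gave no difference at a CBF gene that passed the test. Bradi4g35580 had 20.2 and 31.7 in the V0 libraries, or 25.9 ± 8.08 (SD, n = 2), with 38.6 in V30 and 19.8 in V30N. V30 was above both V0 libraries and V30N just below the lower one. Bradi4g35590 had 45.0 and 59.8 in V0, or 52.4 ± 10.4 (SD, n = 2), with 73.3 in V30, again above both, and the fill value of 25.4 in V30N, which may not be a measured level. At Bradi4g35600 the V0 libraries stood far apart, at 109 and 195, with 152 ± 60.7 as their mean and SD (n = 2). Its V30 value of 180 and V30N value of 185 both lay between them.

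Of the 2 genes with H3K4me3 values only, Bradi4g35610 had 28.9 and 41.6 in V0, 35.5 in V30 and 38.0 in V30N, so neither later condition left the range of the V0 pair. Bradi4g35650, the last of the run, had 39.6 and 47.3 in V0, 31.6 in V30 and 34.4 in V30N, both below the pair. Beside the 5 genes, V30 lay above both V0 libraries at 2, where 20.1% of all genes did so, and below both at 1, where 41.5% did so. V30N lay above both at 0 of the 5 (33.7% of all genes) and below both at 3 (17.4%), 1 of them by its fill value. V0 library 2 had a median signal of 55.4 and V30N 53.6, against 43.0 in V0 library 1 and 44.4 in V30. With each library centred on its median, V30 was above both V0 libraries at 4 of 5 (36.6% of all genes) and below both at 1 (31%), and V30N was above both at 0 (24%) and below both at 3 (32.6%).

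Against the mean of both V0 libraries, V30 minus V0 of H3K4me3 was 0.46 (SE 0.43) at Bradi4g35580, 0.43 (SE 0.40) at Bradi4g35590 and 0.29 (SE 0.18) at Bradi4g35600. It was 0.02 (SE 0.46) at Bradi4g35610 and -0.36 (SE 0.45) at Bradi4g35650. Of these 5, limma with Benjamini-Hochberg adjustment over all 11752 genes called 0, against 0.536% of all genes. An unadjusted p under 0.05 was found at 0 of the 5, against 4.98% of all genes. Each SE comes from a trend over genes of similar level, not from the gene's own V0 pair. Bradi4g35600, with the smallest SE of the 5, had the widest log2 gap between its V0 libraries, at 0.79. The median of the 5 was 0.29, and that of all genes was -0.08. The median rests on the choice of V0 library: it was 0.60 against library 1, which shares the spacing of V30, and -0.11 against library 2. Over all genes the median was 0.03 against library 1 and -0.22 against library 2. At Bradi4g35580 the differences were 0.69 and 0.22 against libraries 1 and 2, at Bradi4g35590 0.60 and 0.26, and at Bradi4g35650 -0.26 and -0.47. Bradi4g35600 turned from 0.68 to -0.11 and Bradi4g35610 from 0.23 to -0.18. Centring removed those sign changes, with 0.64 and 0.16 at Bradi4g35600 and 0.19 and 0.09 at Bradi4g35610, and it left Bradi4g35580 at 0.66 and 0.49 and Bradi4g35590 at 0.57 and 0.53.

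**Figure D4:**
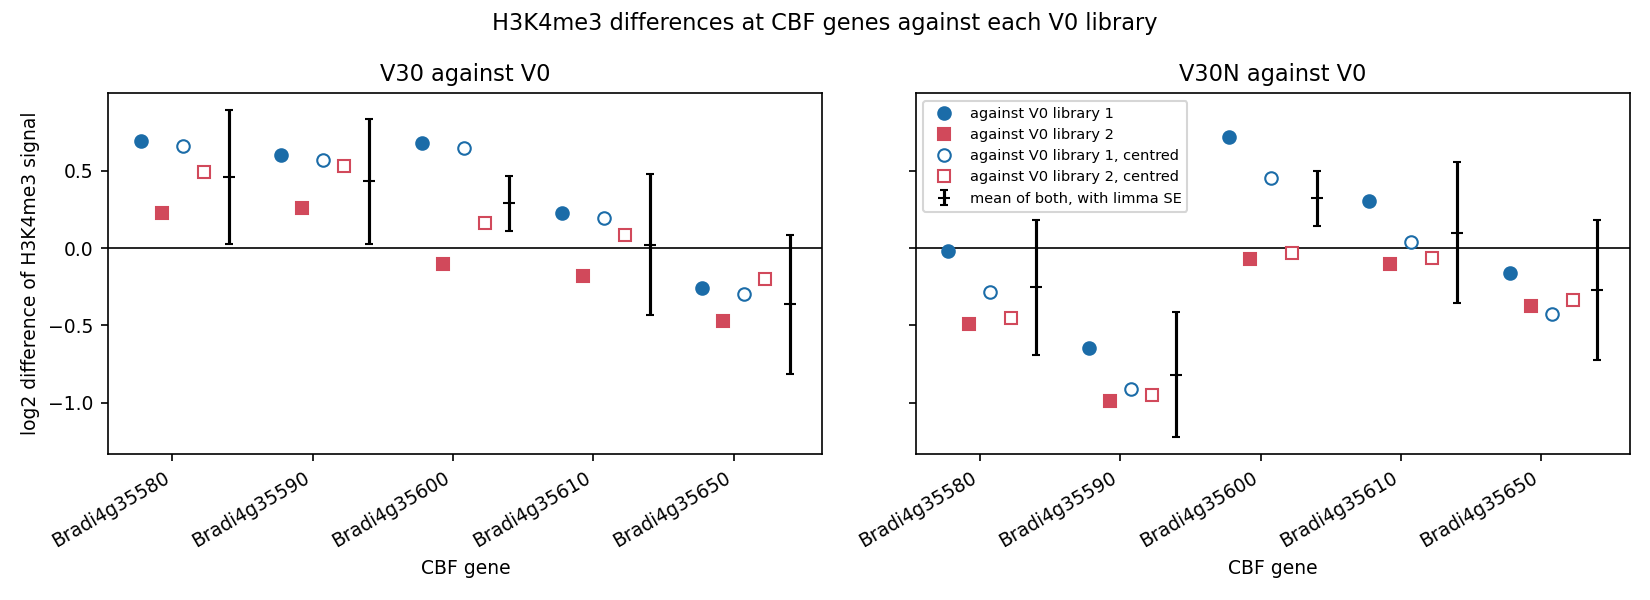
Log2 difference in H3K4me3 of V30 (left) and V30N (right) from each V0 library at the 5 CBF genes measured, as deposited (filled) and with libraries centred on their medians (open), and from the mean of both libraries with limma's standard error (black). For V30, Bradi4g35580 and Bradi4g35590 lie above 0 and Bradi4g35650 below 0 against either library, and the values for V30N at Bradi4g35590 rest on a fill value.

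After rewarming, V30N minus V0 of H3K4me3 was -0.25 (SE 0.43) at Bradi4g35580, -0.27 (SE 0.45) at Bradi4g35650, 0.10 (SE 0.46) at Bradi4g35610 and 0.32 (SE 0.18) at Bradi4g35600. At Bradi4g35590 it was -0.82 (SE 0.40), with the fill value in V30N. Here limma called 0 of the 5, against 0.0255% of all genes. Only Bradi4g35590 among them had an unadjusted p under 0.05, as did 1.12% of all genes. The median was -0.25, or -0.08 over the 4 genes free of the fill value, and that of all genes was 0.09. Against V0 library 2 alone, all 5 were below 0, as were 7058 of all 11752 genes. Their median was -0.37, and that of all genes was -0.04. Against V0 library 1 alone the CBF median was -0.02, with 0.72 at Bradi4g35600 and 0.31 at Bradi4g35610, and that of all genes was 0.21.

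Between V30 and V30N the widest H3K4me3 gap free of a fill value was at Bradi4g35580, which had 38.6 and 19.8, a log2 difference of -0.71 (SE 0.50). Bradi4g35590 differed by -1.25 (SE 0.47; limma adjusted p = 0.473), again from the fill value, and Bradi4g35600, Bradi4g35610 and Bradi4g35650 by 0.03, 0.08 and 0.10. In this comparison limma called 0 of the 5, against 0.289% of all genes, and 1, Bradi4g35590, had an unadjusted p under 0.05, against 4.87% of all genes. Centring moves every value of this comparison by -0.23 and takes the last 3 to -0.19, -0.15 and -0.13. At Bradi4g35580, then, V30 had the highest H3K4me3 and the lowest H3K27me3 of any condition. Bradi4g35590 had the same order, but its H3K4me3 value in V30N is the fill value and may not be a measured level. At neither gene did the H3K4me3 difference between V30 and V0 pass the test. The H3K4me3 signal of Bradi4g35580 is among the lowest 25% of genes. Its values in V0 library 1 and V30N, 20.2 and 19.8, lay below the fill values of those libraries, 22.3 and 25.4. At Bradi4g35600, V30 also had the lowest H3K27me3, and its H3K4me3 lay within the V0 pair as deposited and above both V0 libraries with centring. Whether the marks differ together across these genes was not tested.

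On the flanks, 32 loci had H3K4me3 values, 16 on each side. Their V30 minus V0 differences had a median of -0.18, and -0.10 over the 28 free of a fill value, which ran from -0.70 to 0.35. Against the mean of both V0 libraries, Bradi4g35580 and Bradi4g35590 lay above all 28, and Bradi4g35600, Bradi4g35610 and Bradi4g35650 within their range. Against V0 library 2 alone the highest of the 28 was 0.29, above Bradi4g35580 at 0.22 and Bradi4g35590 at 0.26. With centring the highest was 0.56 against that library, again above these 2 genes, at 0.49 and 0.53. The nearest locus before the run, Bradi4g35557, had 53.5 and 67.7 in V0 and 53.7 in V30, and the nearest after it, Bradi4g35670, had 38.5 and 75.6 in V0 and 46.4 in V30. The 2 flanking loci that limma called for V30 against V0, Bradi4g35490 and Bradi4g35867 (adjusted p = 0.0102 and 0.0249), were named after their values were seen, and both hold the fill value of 22.9 in V30. No flanking locus was called by limma for V30N against V0, with 0 at an unadjusted p under 0.05. For V30N against V30, limma called 1 of the 32, against 0.289% of all genes. An unadjusted limma p under 0.05 was found at 4 of the 32, against 4.87% of all genes. Among the 28 loci free of a fill value these counts were 0 and 1. For V30N minus V30, the 28 loci free of a fill value ran from -0.47 to 0.94, and Bradi4g35580 lay below them all.

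Ice recrystallization inhibition (IRI) proteins, which limit the growth of ice crystals in cold-hardy grasses, are another cold-response family. Of 6 listed IRI loci of chromosome 5, 5 had H3K27me3 values and 0 were in the H3K4me3 tables, so the marks can be set side by side at CBF genes but not at IRI genes. For V30 against V0, 3 of the 5 were lower by 1.5-fold, against 1.83% of all genes. Their differences ran from -1.42 to 0.11 with a median of -0.98, and the median of all genes was -0.0099. For V30N against V0 the IRI values lay between -0.56 and -0.26, whereas the CBF values lay between 0.05 and 0.21 and the median of all genes was -0.0063. For V30N against V30 the IRI values ran from -0.55 to 1.06, a range that takes in the CBF values of 0.29 to 0.93. No difference between the families was tested.

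Genes whose profile was nearest to that of the CBF genes were looked for by Euclidean distance between log2 values centred on each gene's own mean. Over the 3 H3K27me3 libraries the nearest of 6550 candidates was Bradi1g17430, with 173 in V0, 114 in V30 and 191 in V30N, followed by Bradi2g60990, with 69.8, 40.6 and 79.2. The distances were 0.0040 and 0.015, and those of the CBF genes to their own mean profile ran from 0.059 at Bradi4g35580 to 0.29 at Bradi4g35640. Candidates closer to that mean than the CBF gene numbered 13 at Bradi4g35580, 20 at Bradi4g35600, 348 at Bradi4g35590 and 753 at Bradi4g35640. Over the 4 H3K4me3 libraries, with the 4 CBF genes free of a fill value, the nearest of 9319 were Bradi2g13820 and Bradi3g49190 at 0.021 and 0.033. Bradi2g13820 had 47.4 and 69.4 in V0, 63.3 in V30 and 55.8 in V30N. For that mark the CBF genes lay 0.15 to 0.43 from their own mean. At Bradi4g35610 352 candidates were closer to that mean, and at Bradi4g35650 5776 were.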

How the data were processed

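Each deposited table holds 1 signal value per gene for 1 library. Reads were aligned with Bowtie2 2.1.0, per the submitters' processing notes. Genome build, annotation, region calling, input correction and scaling are not given in the sources used here. A locus is present only if the deposited tables of a mark list it, so an absent CBF gene has no value rather than a low one. The CBF and IRI lists, the comparisons and most alternatives were chosen with earlier results of these data known.

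Values were used as deposited, as log2(signal + pseudocount), with the 1st percentile of a mark's values as pseudocount. For H3K4me3, limma 3.58.1 (R 4.3.3) was fitted to all genes and 4 libraries with 1 coefficient per condition, a variance trend and Benjamini-Hochberg adjustment at 0.05. The only residual degree of freedom comes from the V0 pair, and V30 and V30N are assumed to vary as V0 does. In the main fit the prior took over completely, so a gene's SE is the trend's value at its level. With centring or without a variance trend it did not, and a gene's SE then drew on its own V0 pair as well. The step was run on simulated data with the same spread at every gene, no fill values and no shift between libraries. Those settings differ from these data, so the run does not show how the step performs on them. H3K27me3 has no replicate and no test. Flanks were the measured loci within 300 locus numbers of the run. Named genes were the CBF genes, the nearest measured locus on each side, the IRI list and the 2 nearest profiles per mark. Value spacing was found by scanning steps over values below 20 (H3K4me3) or 40 (H3K27me3). Alternatives covered pseudocount, scaling, a filter on the lowest 25% of genes, the variance trend, fill values, the level trend (lowess), the size threshold and each V0 library. Centring together with leaving out a V0 library was added after the data were seen. Python 3.11.15, numpy 2.4.6, pandas 2.3.3 and matplotlib 3.10.9 were used.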

Additional observations from a re-analysis of the deposited data

How the results depend on the processing

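No CBF gene passed limma for H3K4me3 in any alternative that gave a test, where the smallest adjusted p was 0.273, at Bradi4g35590 for V30N against V30 with centring. Bradi4g35580 and Bradi4g35610 have no H3K4me3 result under the filter on the lowest 25% of genes. No paired analysis was possible because the groups compared share fewer than 2 replicate numbers. Limma calls over all genes rested on the setting. For V30 against V0 there were 63, with 3 once genes holding a fill value were left out, 23 with a pseudocount 4 times as large and 0 with centring, quantile normalization or no variance trend. For V30N against V0 there were 3, and 0 with centring, quantile normalization, no variance trend or no pseudocount. For V30N against V30 there were 34, then 2 without fill values, 19 without a pseudocount, 10 with the larger one and 0 with centring, quantile normalization or no trend. The cause was not tested.

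When either V0 library was left out, the H3K4me3 median over all genes was -0.22 to 0.03 for V30 and -0.04 to 0.21 for V30N. The H3K4me3 median over CBF genes was then -0.11 to 0.60 for V30 and -0.37 to -0.02 for V30N. For V30N against V30 it turned from 0.03 to -0.19 with centring, the value of Bradi4g35600, and -0.29 with quantile normalization, and centring gave -0.15 at Bradi4g35610 and -0.13 at Bradi4g35650. Quantile normalization also gave -0.28 at Bradi4g35610 and -0.29 at Bradi4g35650 there, and -0.10 at Bradi4g35610 for V30N against V0, where centring gave -0.012. Without V0 library 1, Bradi4g35600 and Bradi4g35610 were at -0.11 and -0.18 for V30, and at 0.68 and 0.23 without library 2. For V30N they were at -0.072 and -0.11 without library 1 and at 0.72 and 0.31 without library 2, or at -0.030 and -0.064 without library 1 and with centring.

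The direction of H3K27me3 held at all 4 CBF genes in the alternatives run, except that Bradi4g35640 has no value under the filter on the lowest 25% of genes. The median for V30 against V0 was -0.75 without a pseudocount and -0.34 with the larger one, and for V30N against V30 it was 0.85 and 0.38. CBF genes lower by 1.5-fold in V30 numbered 2, or 1 with centring, quantile normalization or the level trend removed, and 0 with the larger pseudocount or at 2-fold. Those higher in V30N than in V30 numbered 3, with 2 under centring, quantile normalization or the level trend removed, 1 under the larger pseudocount and 0 at 2-fold. Under centring, quantile normalization and the level trend removed, all genes lower in V30 by 1.5-fold numbered 97, 84 and 92. All genes higher in V30N than in V30 then numbered 64, 51 and 60. Over all genes the 120 lower in V30 became 390 without a pseudocount, 30 with the larger one and 22 at 2-fold. The 7 higher in V30N than in V0 became 63, 0 and 0 in the same order, and 4 under the filter, and the 76 higher in V30N than in V30 became 327, 12 and 8. Depth is unknown for every library.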
